A study of Mus musculus and Acomys cahirinus with 2 samples.

Results

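The insulin-like growth factor (IGF) binding proteins of ear skin were followed in 8 genes: the binding protein genes Igfbp2, Igfbp3, Igfbp4, Igfbp5, Igfbp6 and Igfbp7, the ligand gene Igf1 and the receptor gene Igf1r. They were taken by symbol from the gene lists of 2 single-cell libraries, and each symbol had 1 row in each list, out of 24509 genes in the Acomys list, 28692 in the Mus list and 15709 symbols in both. One library came from adult ear skin of Acomys cahirinus, the spiny mouse, whose ears can regenerate after injury, and the other from adult ear skin of Mus musculus, the house mouse. Both were made with the 10x Genomics droplet assay and labelled day 0, and the series title calls the ears injured. Strain, sex, genotype and the number of animals are not given in the sources used here. With 1 library per species no test was possible, and species, animal, library and reference annotation cannot be told apart in any difference.

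IGF1 and IGF2 are secreted growth factors that act through the receptor tyrosine kinase encoded by Igf1r. The classical binding proteins hold the ligands outside the cell, prolong their stay and can keep them from the receptor, and proteases release the ligands again. In skin, dermal cells are a known source of IGF1 and keratinocytes carry its receptor. IGFBP7 differs from the others in its low affinity for IGFs and is known as a protein of vessel walls and basement membranes.

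In the mouse genome (RefSeq, GRCm38.p6) the genes lie on 6 chromosomes. Igfbp2 (chr1:72824480-72852474) and Igfbp5 (chr1:72858065-72874865) are neighbours 5590 bases apart with 0 RefSeq genes between them. Igfbp3 lies at chr11:7206086-7215498 beside Igfbp1, Igfbp4 at chr11:99040005-99052655, Igfbp6 at chr15:102144186-102149512 and Igfbp7 at chr5:77349240-77408045. Igf1 lies at chr10:87858265-87937047 and Igf1r at chr7:67952257-68233668. Coordinates of the Acomys genes are not given in the sources used here. The 250 bases before a RefSeq transcript start are shown for the 4 genes with levels well above 0 in both libraries, on which the comparisons rest, with matches to the GC box (GGGCGG) and the TATA box (TATAAA), on either strand, in capitals.
Igfbp2 (chr1:72824230-72824479, plus strand): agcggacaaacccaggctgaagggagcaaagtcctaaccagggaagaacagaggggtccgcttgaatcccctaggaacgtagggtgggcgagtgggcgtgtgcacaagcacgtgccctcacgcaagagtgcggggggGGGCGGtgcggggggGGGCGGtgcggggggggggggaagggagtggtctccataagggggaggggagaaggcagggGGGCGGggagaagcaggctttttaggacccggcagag
Igfbp3 (chr11:7213924-7214173, minus strand): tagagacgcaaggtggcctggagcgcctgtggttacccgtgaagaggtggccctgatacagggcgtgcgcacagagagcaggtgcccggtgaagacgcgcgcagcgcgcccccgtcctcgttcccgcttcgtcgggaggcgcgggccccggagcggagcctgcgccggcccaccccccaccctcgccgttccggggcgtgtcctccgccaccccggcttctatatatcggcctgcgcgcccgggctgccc
Igfbp6 (chr15:102143936-102144185, plus strand): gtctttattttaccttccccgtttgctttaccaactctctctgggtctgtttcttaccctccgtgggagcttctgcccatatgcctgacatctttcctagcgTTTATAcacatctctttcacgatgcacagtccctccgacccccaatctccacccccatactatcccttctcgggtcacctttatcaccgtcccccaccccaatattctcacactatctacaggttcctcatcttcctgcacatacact
Igfbp7 (chr5:77408046-77408295, minus strand): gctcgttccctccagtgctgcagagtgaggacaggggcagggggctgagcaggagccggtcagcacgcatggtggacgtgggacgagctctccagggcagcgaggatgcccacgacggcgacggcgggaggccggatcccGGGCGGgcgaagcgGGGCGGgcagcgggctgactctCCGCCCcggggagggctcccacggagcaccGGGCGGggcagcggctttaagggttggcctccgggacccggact
These windows held 3 GC boxes in Igfbp2, 4 in Igfbp7 and 0 in Igfbp3 and Igfbp6, and 1 TATA box match, in Igfbp6, whose first base lies 148 bases before the start. Another Igfbp2 window, at chr1:72825137-72825386 and not shown, held 0 GC boxes. The Igfbp3 window lies inside the span of the gene given above. Of 32851 mouse promoter windows of this length, 32.7% held a GC box and 12.4% a TATA box by the same search. A match describes the letters only.

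Levels are given as CPM, the count of UMIs of a gene summed over a class of cells and divided by all UMIs of that class on the 15709 shared symbols, scaled to 1e+06. A UMI is a molecular barcode that tags 1 captured transcript. The assay counts transcripts from their 3′ end, so levels are per molecule and not scaled by length. Epithelial classes were taken from 4603 Acomys cells with a median of 7508 UMIs and 6556 Mus cells with a median of 11755 UMIs. The epithelial classes held 1001 and 3757 basal keratinocyte-like cells, 972 and 1524 suprabasal keratinocyte-like cells, 656 and 440 hair follicle-like cells and 329 and 274 sebocyte-like cells in Acomys and Mus. The remaining cells were of other classes or in unnamed clusters, and their share was larger in Acomys. Stromal and endothelial cells had few UMIs and were few, so they were taken with a lower minimum of 1000 UMIs. This gave 413 and 176 blood endothelium-like, 148 and 55 chondrocyte-like and 25 and 27 pericyte-like cells in Acomys and Mus. It also gave 79 Mus fibroblast-like cells with all 12 fibroblast markers counted. The only Acomys cluster with at least 3 of these markers and no more of another type was 25 cells led by Itm2a and Myf5, a gene of muscle progenitors. It had 4 of the 12 markers and stayed unnamed, so no ratio is given for fibroblasts. Dcn and Col1a2, genes of the fibroblast list, were among the leading genes of the Acomys chondrocyte-like cells beside Cytl1 and Comp. Median depths of these stromal and endothelial classes were 1710 to 2086.5 UMIs in Acomys and 2251 to 3662 in Mus. The libraries shared 32 barcodes among the 4603 and 6556 cells, against 40.9 from the barcode list by chance. Every interval is an exact 95% interval that covers counting error only.

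Transcripts released from broken cells were measured in barcodes too small to be cells. In barcodes of 1 to 10 UMIs, Igfbp2 had 180.5 CPM in Acomys, against 216 in Mus, Igfbp3 had 270.1 and 189, Igfbp6 had 29.0 and 77.3, and Igfbp7 had 196 and 416. Levels in immune cells, which are not a known source of these genes, were lower. In 81 Acomys T cell-like cells Igfbp2, Igfbp3 and Igfbp7 had 65.4, 49.0 and 32.7 CPM, and 6.17%, 7.41% and 4.94% of the cells had a UMI at a median of 2112 UMIs. In a Mus cluster of 85 cells led by Cd52 and Fcer1g, a mixed immune cluster that stayed unnamed, the same genes had 34.3, 51.4 and 91.5 CPM at a median of 2832 UMIs. For Igfbp2, Igfbp3 and Igfbp7, levels near or below those of the immune cells are read here as background. Free RNA is a higher mark than the immune cells for these genes. Igfbp4, Igfbp5, Igfbp6 and Igf1r are set against free RNA instead, with levels well below it read as background.

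Igfbp2, Igfbp3 and Igfbp7 made up nearly all binding protein transcripts of the epidermis in both libraries, but in different proportions. Igfbp3 was 2.31-fold higher in Acomys basal cells and 3.26-fold higher in Acomys suprabasal cells. Igfbp6 was 8.40-fold lower in Acomys basal cells, and 2.91-fold lower (2.55 to 3.33) with the lower minimum of 1000 UMIs. In all cells outside the class the ratio of Igfbp3 was 1.94 for basal and 1.06 for suprabasal cells, and relative to it the basal ratio was 1.19 and no longer counted as higher. In blood endothelium-like cells Igfbp7 was 7.69-fold lower and Igfbp3 10.1-fold higher in Acomys, and Igfbp3 was 2.28-fold higher (1.17 to 4.71) with the higher UMI minimum of the epithelial classes. Sebocyte-like cells of both libraries expressed mainly Igfbp2, whose level was 829 CPM in Acomys and 933 in Mus. Igfbp4, Igfbp5, Igf1 and Igf1r were almost without UMIs in Acomys, in whole libraries as well as in most classes.

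A member counted as higher or lower where the ratio was at least 2-fold and its interval excluded 1. It was examined in a class with at least 10 UMIs in both libraries together, and Igf1 fell below that in all 4 epithelial classes. In basal cells 2 of 7 members were higher and 4 lower in Acomys, where 16.0% of 10993 genes were higher and 37.5% lower. In suprabasal cells 1 of 7 was higher and 4 lower, beside 15.9% and 40.6% of 10474 genes. In follicle cells 1 of 7 was higher and 3 lower, beside 13.3% and 39.9% of 9642 genes. In sebocytes 0 of 6 were higher and 3 lower, beside 11.8% and 42.8% of 9164 genes. Over the 4 classes this makes 4 higher and 14 lower of 27, and Igfbp4 and Igf1r gave 4 of the lower ones each, Igfbp5 and Igfbp6 3 each. Among the members examined, which excludes Igf1 throughout and Igfbp5 in sebocytes, the median log2 ratio was -2.12 for basal cells, -1.09 for suprabasal cells, -0.94 for follicle cells and -0.72 for sebocytes. The median of all genes examined in the same classes was -0.47, -0.58, -0.55 and -0.74.

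**Figure D1:**
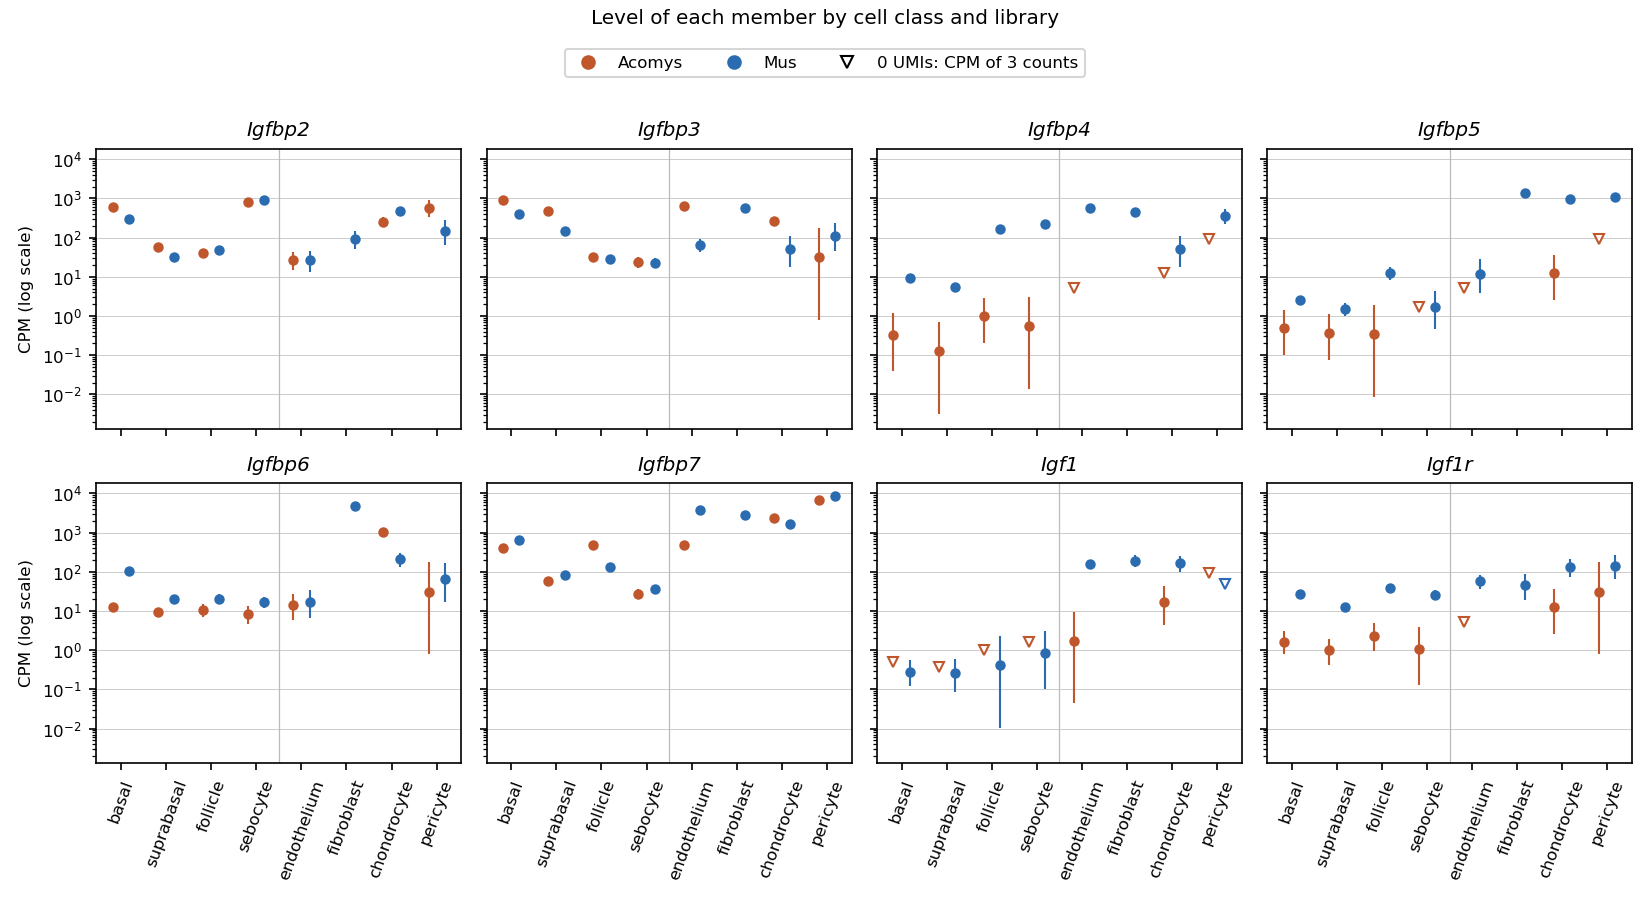
Level of each member in CPM on a log axis, by cell class, with Acomys left of Mus. Points are summed counts with exact 95% counting intervals, and open triangles mark classes with 0 UMIs at the CPM of 3 counts. Igfbp2, Igfbp3, Igfbp6 and Igfbp7 have many UMIs in both libraries, while Igfbp4, Igfbp5, Igf1 and Igf1r lie lower in Acomys in nearly every class.

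The ligand gene Igf1 was a transcript of some stromal and endothelial classes. Chondrocyte-like and blood endothelium-like cells of Acomys had 16.5 and 1.73 CPM, from 4 and 1 UMIs, and those of Mus had 165 and 159 CPM. That is 10.0-fold lower (3.35 to 40.2) in Acomys chondrocyte-like cells and 91.6-fold lower (15.9 to 3671) in Acomys endothelium-like cells. Mus fibroblast-like cells had 191 CPM (133 to 267). Mus lymphatic endothelium-like cells had 19.2 CPM, and pericyte-like cells had 0 UMIs in both libraries. Epithelial cells had 0 UMIs of Igf1 in all 4 Acomys classes and 0.259 to 0.84 CPM in Mus. Among Mus blood endothelium-like cells, all 67 UMIs were in the 149 cells of the cluster led by Fabp4, Ackr1 and Vwf, and the 27 cells of the cluster led by Mgp and Sox17 had 0.

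The receptor gene Igf1r was low in the epithelial classes of both libraries. Basal, suprabasal, follicle and sebocyte cells had 1.66, 0.996, 2.36 and 1.10 CPM in Acomys and 26.4, 12.6, 39.1 and 26.0 CPM in Mus. Free RNA had 2.63 CPM in Acomys, from 2 UMIs, and 34.4 CPM (22.8 to 49.7) in Mus. Only the Mus follicle level lies above the free RNA level of its library, and it lies within that interval. None of the 4 classes thus stands clear of free RNA for this gene, although it counted as lower in each. How much of each level comes from free RNA was not tested. The follicle was highest in each library, though its interval overlaps those of all other classes in Acomys and that of sebocytes in Mus. It was 12.7-fold to 23.7-fold lower in Acomys in these 4 classes. A UMI was seen in 0.999% of Acomys and 17.6% of Mus basal cells, and in 0.3% and 4.07% once each cell was thinned to 2500 UMIs. Pericyte-like cells had 31.4 CPM in Acomys, from 1 UMI, and 144 CPM in Mus, from 9. Chondrocyte-like cells had 12.4 CPM in Acomys, from 3 UMIs, and 132 CPM in Mus, from 16, 10.7-fold lower in Acomys (3.05 to 57.1). Blood endothelium-like cells had 0 UMIs in Acomys and 56.8 CPM in Mus, from 24, at least 10.9-fold lower in Acomys. Igf1r counted as lower in both of these but not in pericyte-like cells. These Mus levels lie above the free RNA level of 34.4 CPM.

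Over all barcodes of the library, Acomys had 13 UMIs of Igf1, 106 of Igf1r, 23 of Igfbp4 and 39 of Igfbp5, and Mus had 229, 1987, 2864 and 1270. For these 4 genes, lower expression and a row that captures few of the reads of the gene in the Acomys reference cannot be told apart. Their Acomys levels carry little pattern, and their profiles are described from Mus.

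Igfbp2 encodes a secreted carrier that favours IGF2. Among the epithelial classes of both libraries it was highest in sebocytes, second in basal cells and low in suprabasal and follicle cells. Suprabasal cells had 57.3 CPM in Acomys and 31.7 CPM in Mus, and follicle cells 41.1 and 49.2 CPM. These levels lie near or below those of the immune cells and are read as background. Sebocyte-like cells had 829 CPM (788 to 872) in Acomys and 933 CPM (894 to 972) in Mus, a ratio of 0.889. Basal cells had 586 CPM in Acomys and 293 CPM in Mus. Sebocytes were 1.42-fold above basal cells (1.33 to 1.504) in Acomys and 3.19-fold above (3.04 to 3.34) in Mus.

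Among the sebocyte-like clusters, Igfbp2 was lower in the cluster led by genes of lipid synthesis in both libraries. The cluster led by Elovl3, Cers4 and Cidea had 222 CPM in 35 Acomys cells, against 921 CPM in the 294 cells of the other Acomys sebocyte-like cluster. The Mus cluster led by Cidea, Elovl6 and Cers4 had 646 CPM in 89 cells, against 1114.5 CPM in 185 cells of the other. Thinned to 2500 UMIs, 68.7% of Acomys and 69.3% of Mus sebocyte-like cells had a UMI of Igfbp2, and 91.8% and 91.2% before thinning.

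The basal ratio of Igfbp2 lay at the 2-fold limit, with an interval of 1.92 to 2.08, and in all other cells the ratio was 0.966. Levels ranged widely among basal clusters. In Acomys they ran between 70.1 CPM in a cluster of 98 dividing cells led by Stmn1 and 738 CPM in one of 179 dividing cells led by Cdk1. In Mus they ran between 111 CPM in a cluster led by Krt1 and 654 CPM in one of 265 dividing cells led by Cenpa and Pttg1. A cluster of 736 Acomys cells led by Adh7, Fst and Cyp1a1, with basal markers but left unnamed, had 59.8 CPM. When unnamed clusters with at least 3 basal markers were counted as basal, the log2 ratio fell to 0.36 and the member no longer counted as higher.

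Outside the epithelium, Igfbp2 reached 566 CPM (335 to 894) in Acomys pericyte-like cells and 144 CPM (66.0 to 274) in Mus ones, 3.92-fold higher in Acomys (1.67 to 9.91) from 18 and 9 UMIs. The Mus pericyte level lies below the free RNA level of 216 CPM in Mus. Chondrocyte-like cells had 256 CPM in Acomys and 479 CPM in Mus, 1.87-fold lower in Acomys (1.28 to 2.72). With the higher UMI minimum 33 Acomys chondrocyte-like cells had 539 CPM and no Mus cluster took that name, so the direction rests on the lower minimum. Blood endothelium-like cells were at background, with 26.0 CPM in each library.

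Igfbp3 encodes the main carrier of IGFs in blood and is known in skin as a product of basal keratinocytes. It was highest among epithelial cells in basal cells, with 894 CPM (869.8 to 918) in Acomys and 388 CPM (380.4 to 395) in Mus. Suprabasal cells had 473 CPM (458 to 488) in Acomys and 145 CPM (139.6 to 150.4) in Mus. The Mus suprabasal level lies below the free RNA level of 189 CPM in Mus. Follicle and sebocyte cells were at background in both libraries, between 22.7 and 32.3 CPM. Suprabasal cells were 1.89-fold below basal cells (1.81 to 1.97) in Acomys and 2.67-fold below (2.56 to 2.79) in Mus.

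Igfbp3 also varied inside the suprabasal class. Acomys had 661 CPM in the cluster led by Ly6d and Krt1, 328 CPM in the one led by Mt4 and Il18, and 420.5 CPM in the one led by Endou. The unnamed Acomys cluster led by Klk5 and Serpina12, with suprabasal markers, had 129.6 CPM. In Mus the cluster led by Mt4 and Krt1 had 299 CPM and the others 30.6 to 124 CPM, lowest in the cells led by Lor and Flg2, genes of the outermost layers. After thinning, 39.6% of Acomys and 17.1% of Mus suprabasal cells had a UMI, and 66.3% and 57.9% before it.

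Igfbp3 was at background in one dividing set of Acomys basal cells. The dividing cluster led by Stmn1 had 14.9 CPM, against 1037 CPM in the largest basal cluster, led by Serpinb10 and Dlk2, and 1355 CPM in the dividing cluster led by Cdk1. The unnamed cells led by Adh7 and Fst had 56.2 CPM. With the unnamed clusters counted as basal, the log2 ratio of Igfbp3 was 0.53, against 1.21 without them, and it no longer counted as higher. The named Mus basal clusters lay between 256.5 and 544 CPM, and the unnamed Mus cluster of 453 cells led by Sostdc1 and Adh7 had 39.5 CPM.

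**Figure D2:**
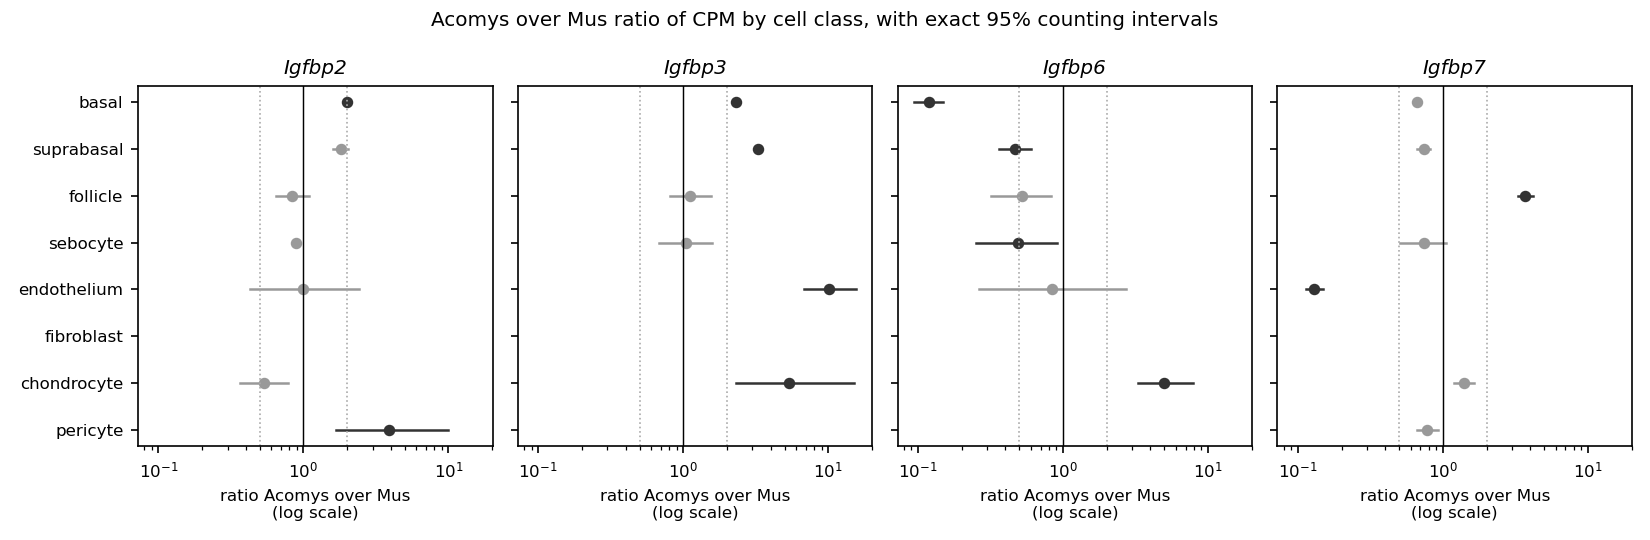
Acomys over Mus ratio of CPM on a log axis for the 4 members measured well in both libraries, by cell class. Points are ratios with exact 95% counting intervals, black where a member passed 2-fold with an interval that excludes 1 and grey otherwise, and pairs with fewer than 10 UMIs are left out. The fibroblast row is empty because that class was named in Mus alone. Igfbp3 lies at or above 1 in every class drawn, whereas Igfbp6 and Igfbp7 lie on both sides.

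Blood endothelium was where Igfbp3 differed most at the lower minimum, with 648 CPM (584 to 717) in Acomys and 63.9 CPM (42.1 to 93.01) in Mus, 10.1-fold higher in Acomys (6.85 to 15.6). In blood endothelium-like cells 1 of 7 members was higher and 4 were lower, beside 13.9% and 33.0% of 7377 genes. Each library had 2 endothelial clusters, 1 led by Fabp4, Ackr1 and Vwf, the other by Mgp, Sox17 and Cldn5, genes known from venous and arterial vessels. In the Mgp cluster Igfbp3 had 2357 CPM in 113 Acomys cells and 267 CPM in 27 Mus cells, 8.83-fold higher in Acomys (5.19 to 16.3). In the Fabp4 cluster it had 118 CPM in 300 Acomys cells and 35.1 CPM in 149 Mus cells, 3.36-fold higher in Acomys (1.80 to 6.72). This Mus level lies below the 51.4 CPM of the Mus immune cluster, and the 63.9 CPM of the whole Mus class lies near it, so the folds of the class and of the Fabp4 cluster are taken against background. The Acomys level of the Fabp4 cluster lies below the free RNA level of 270.1 CPM in Acomys. The class fold exceeds that of either cluster. The Mgp cluster was 113 of 413 Acomys cells and 27 of 176 Mus cells, and the part of this mix in the class fold was not tested.

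Within each library Igfbp3 was higher in the Mgp cluster, by 19.98-fold over the Fabp4 cluster (14.9 to 27.3) in Acomys and 7.59-fold (3.31 to 17.5) in Mus. With the higher UMI minimum of the epithelial classes, each library had 1 endothelial cluster, led by Fabp4, in which Igfbp3 had 176 CPM in 82 Acomys cells and 77.01 CPM in 43 Mus cells. The endothelial clusters were picked for description after their values were seen.

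Of the stromal clusters, the 25 Acomys cells led by Itm2a and Myf5 had the highest Igfbp3 of that library's stroma, 2086 CPM from 70 UMIs. Mus fibroblast-like cells had 574 CPM, the highest of the Mus stroma. Chondrocyte-like cells had 264 CPM in Acomys and 49.6 CPM in Mus, 5.33-fold higher in Acomys (2.32 to 15.1) from 64 and 6 UMIs, where the Mus level is at background.

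Igfbp7, the low-affinity member, had the highest single level of the family in both libraries. Pericyte-like cells had 6726 CPM (5855 to 7689.8) in Acomys and 8595 CPM (7883 to 9355) in Mus. Among named classes, chondrocyte-like cells followed in Acomys with 2379 CPM, against 1702 CPM in Mus, 1.40-fold higher (1.19 to 1.65). Neither difference reached 2-fold.

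Blood endothelium-like cells parted the libraries, with 479.8 CPM (425 to 539.8) of Igfbp7 in Acomys and 3689 CPM (3508 to 3877) in Mus, 7.69-fold lower in Acomys (6.76 to 8.77). The difference held in both endothelial clusters, 7.11-fold lower in the Fabp4 cluster (6.20 to 8.18) and 8.05-fold lower in the Mgp cluster (5.39 to 12.3). In each library the Fabp4 cluster had the higher level, with 554 CPM in Acomys and 3936 CPM in Mus, against 242 CPM and 1944 CPM in the Mgp cluster. A UMI was seen in 34.8% of Acomys and 91.3% of Mus endothelium-like cells thinned to 2500 UMIs, which left 132 and 138 cells, and in 32.7% and 86.9% before.

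Cells with lymphatic markers had high Igfbp7 in Acomys and high Igfbp5 in Mus, though neither level was particular to them. An Acomys cluster of 61 cells led by Mmrn1, Agt and Reln had 6376 CPM of Igfbp7 and 93.3 CPM of Igfbp3. It stayed unnamed because only 2 lymphatic markers, Mmrn1 and Reln, counted there. The 143 Mus lymphatic endothelium-like cells, in which all 7 markers counted, had 668 CPM of Igfbp7, and 1389 CPM of Igfbp5. Acomys pericyte-like cells had 6726 CPM of Igfbp7, and Mus fibroblast-like cells 1346 CPM of Igfbp5. With 39 UMIs of Igfbp5 in the whole Acomys library, that gene could not be compared between the libraries. No ratio was formed between a named and an unnamed group.

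In the epidermis Igfbp7 was a basal transcript, 1.51-fold lower in Acomys, where basal cells had 417 CPM (401 to 434), against 631 CPM (622 to 641) for those of Mus. Suprabasal cells had 60.01 CPM in Acomys and 81.6 CPM in Mus, and sebocytes 26.9 CPM and 36.5 CPM. Suprabasal cells lay below basal cells by similar amounts, 6.95-fold in Acomys (6.30 to 7.68) and 7.74-fold in Mus (7.35 to 8.15). The Mus suprabasal level lies below that of the Mus immune cluster. Both suprabasal levels lie below the free RNA levels of 196 CPM in Acomys and 416 CPM in Mus. Sebocyte levels lie below those of the immune cells in both libraries and are at background. The steps from basal to suprabasal cells are thus taken against levels near background.

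In the follicle Igfbp7 was instead higher in Acomys. It had 483 CPM (458 to 509) in Acomys follicle-like cells and 130.3 CPM (116 to 146) in Mus ones, 3.71-fold higher in Acomys (3.28 to 4.21). The Mus follicle level lies below the free RNA level of 416 CPM in Mus. One Acomys cluster of 202 cells, led by Prss22, Ier3, Krt42 and Cyr61, held most of the Acomys follicle Igfbp7, at 1653 CPM. The Acomys cluster led by Slc39a8 and Krt75 had 403 CPM. The clusters with Krt79 among their first leading genes had 36.4 CPM in Acomys and 40.8 CPM in Mus. Without the Prss22 cluster, Acomys follicle-like cells had 112 CPM and the ratio was 0.861 (0.727 to 1.02). Mus follicle clusters had 282 CPM in cells led by Gm973 and Lhx2 and 157 CPM in cells led by Krt7 and Krt32, and Prss22 and Krt42 led 0 Mus clusters.

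Mus fibroblast-like cells had 2787 CPM of Igfbp7. The 25 Acomys cells led by Itm2a and Myf5 had 89.4 CPM, from 3 UMIs.

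**Figure D3:**
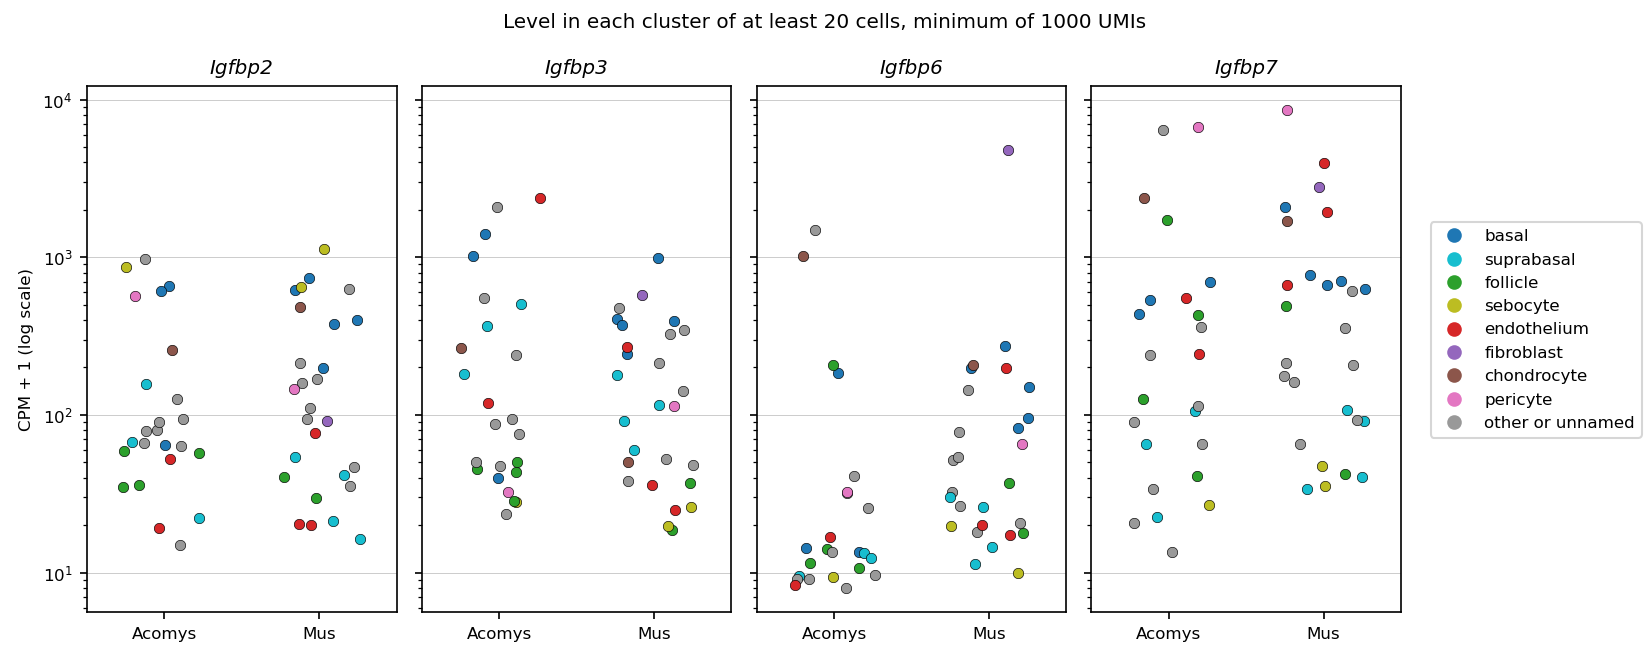
Level of Igfbp2, Igfbp3, Igfbp6 and Igfbp7, as CPM plus 1 on a log axis, in each of 24 Acomys and 27 Mus clusters of at least 20 cells, taken with a minimum of 1000 UMIs. Each point is 1 cluster of 1 library, coloured by its class, and endothelium includes lymphatic cells. Igfbp3 peaks in an endothelial cluster of Acomys at 2357 CPM, and Igfbp7 in pericyte-like cells with 6726 CPM for Acomys and 8595 for Mus.

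Igfbp6 encodes a carrier with a strong preference for IGF2, and in both libraries it was highest outside the epithelium. Its highest cluster was, in Acomys, the 25 cells led by Itm2a and Myf5, with 1490.2 CPM (1106 to 1965), and in Mus the fibroblast-like cells, with 4808 CPM (4491 to 5142). Chondrocyte-like cells had 1024 CPM (901 to 1160.01) in Acomys and 207 CPM (134 to 305) in Mus, 4.96-fold higher in Acomys (3.28 to 7.81). These were 248 UMIs in 27 of 148 Acomys cells and 25 UMIs in 11 of 55 Mus cells. The Acomys class had the fibroblast list genes Dcn and Col1a2 among its leading genes, and the part of fibroblasts in its level was not tested. In chondrocyte-like cells 2 of 7 were higher and 3 lower, beside 15.0% and 17.0% of 4414 genes. In pericyte-like cells 1 of 5 was higher and 2 were lower, beside 12.9% and 16.4% of 1733 genes.

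Basal keratinocytes showed the largest epithelial difference of Igfbp6, with 12.4 CPM (9.77 to 15.6) in Acomys and 104 CPM (100.6 to 108) in Mus. In all other cells together the gene was 1.34-fold lower in Acomys. The 4 named Acomys basal clusters lay between 5.97 and 15.4 CPM, below the free RNA level of 29.0. Among Mus basal clusters the highest levels were 167 CPM in the cells led by Mmp3 and Guca2a and 166 CPM in the dividing cells led by Cenpa. After thinning, 1.30% of Acomys and 12.0% of Mus basal cells had a UMI, and 4.70% and 38.0% before. Suprabasal cells had 9.46 CPM in Acomys and 20.3 CPM in Mus, and sebocytes 8.23 and 16.8 CPM, below the free RNA levels of 29.0 and 77.3 in both libraries, so these classes are at background although they counted as lower.

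In Acomys the higher epithelial levels of Igfbp6 were in 2 unnamed clusters. The 307 cells led by Smim1, Wif1 and Sms, with Lhx2 among their leading genes, had 204 CPM, and the 267 cells led by Krt35, Aspn and Pcp4, also with Lhx2, had 178 CPM. Named Acomys follicle clusters were at background. The follicle class had 10.4 CPM in Acomys, against 20.2 in Mus, a log2 ratio of -0.94. With the minimum of 1000 UMIs, at which a Wif1-led cluster took the follicle name, that log2 ratio was 1.45. With the same minimum a cluster led by Aspn and Krt35 took the basal name, and the basal log2 ratio was -1.54, against -3.06 otherwise.

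Igfbp4 encodes a carrier that the protease PAPP-A cleaves. In Mus it ran highest in blood endothelium-like cells with 563.5 CPM, then in fibroblast-like cells with 450.4 CPM, pericyte-like cells with 353 CPM and lymphatic endothelium-like cells with 336 CPM. Within Mus blood endothelium the Mgp cluster had 1620 CPM and the Fabp4 cluster 414 CPM, a 3.92-fold step (2.97 to 5.14). Among Mus epithelial cells, sebocytes had 217 CPM and follicle cells 161 CPM, with 490.5 CPM in the follicle cluster led by Krt7 and Krt32. Mus basal and suprabasal cells had 9.34 and 5.60 CPM, below the free RNA level of 52.8 CPM in Mus, and are at background.

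Acomys cells had 2, 1, 3 and 1 UMIs of Igfbp4 in basal, suprabasal, follicle and sebocyte cells. Their levels were 28.2-fold (7.73 to 234), 45.0-fold (7.90 to 1792), 159.7-fold (54.2 to 778) and 395-fold (70.6 to 15639) below those of Mus. In basal and suprabasal cells the Mus level itself is at background. Acomys blood endothelium-like cells had 0 UMIs, at least 108-fold below Mus when 3 UMIs are taken as the limit, and pericyte-like cells also had 0.

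Igfbp5 encodes a carrier that binds extracellular matrix. It was stromal and lymphatic in Mus, with 1346 CPM in fibroblast-like, 1058 CPM in pericyte-like and 950.0 CPM in chondrocyte-like cells, and at most 12.2 CPM in the epithelial classes. These epithelial levels lie below the free RNA level of 29.5 CPM in Mus. Acomys chondrocyte-like cells had 12.4 CPM from 3 UMIs, 76.7-fold lower (25.6 to 377.2). Acomys pericyte-like cells had 0 UMIs, at least 11.2-fold lower. These folds compare counts only, since lower expression and a row that captures few reads cannot be told apart for this gene.

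**Figure D4:**
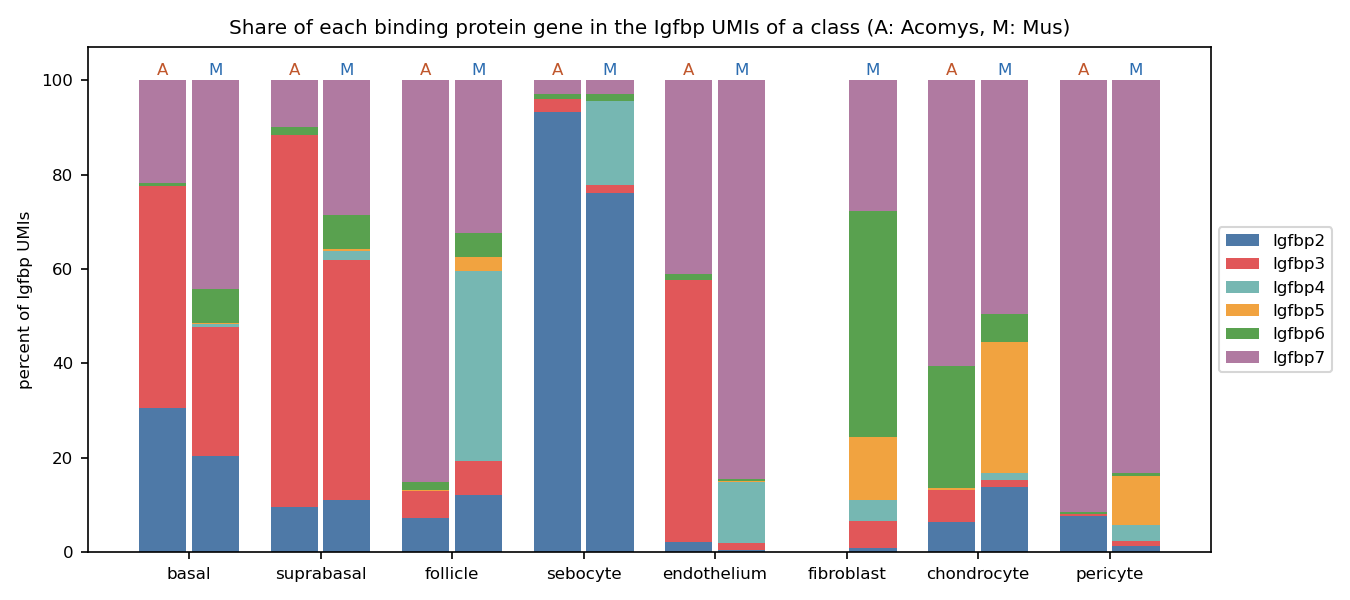
Share of each of the 6 binding protein genes in the binding protein UMIs of a class, in percent, with Acomys (A) left of Mus (M). Bars sum to 100%. The leading gene is the same in both libraries in suprabasal, sebocyte, chondrocyte and pericyte classes and differs in basal, follicle and endothelium classes, though with the higher UMI minimum Igfbp7 leads in endothelium of both. The fibroblast class was named in Mus alone.

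Summed over the 6 binding protein genes, basal cells had 1910 CPM in Acomys and 1428 CPM in Mus. The leading basal gene was Igfbp3 in Acomys with 46.8% of these UMIs (45.9 to 47.7), and Igfbp7 in Mus with 44.2%. Suprabasal cells had 600.3 CPM in Acomys and 286 CPM in Mus, with Igfbp3 leading in both at 78.8% and 50.7%. Sebocytes were dominated by Igfbp2, 93.3% in Acomys and 76.01% in Mus, where Igfbp4 added 17.7%.

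In the follicle Igfbp7 made up 85.0% of the family in Acomys, and Igfbp4 led in Mus with 40.1%, ahead of Igfbp7 with 32.4%. In blood endothelium Igfbp3 made up 55.5% in Acomys and Igfbp7 84.4% in Mus. The lead of Igfbp3 came from the 113 Acomys cells of the Mgp cluster, since in the Fabp4 cluster Igfbp7 was higher, with 554 CPM against 118 CPM of Igfbp3. With the higher UMI minimum Igfbp7 led in both libraries, with 74.0% in Acomys and 87.7% in Mus. Mus fibroblast-like cells were led by Igfbp6 with 47.8% at the lower minimum and by Igfbp7 with 40.5% at the higher one. Where Igfbp4 and Igfbp5 have few UMIs, the shares of the other genes are larger by construction.

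Genes with profiles like those of the members were sought over clusters of at least 20 cells, 20 in Acomys and 19 in Mus, by Pearson r of log2(CPM + 10). Clusters of a library share its depth and free RNA, so r describes and tests nothing. Wnt3, a Wnt ligand of the epidermis, had rank 3 for Igfbp3 in both libraries, with r of 0.76 in Acomys and 0.91 in Mus. Hmgn3 and Hs3st6 were also among the 50 closest to Igfbp3 in both. For Igfbp2 these were Cisd3 and Fam213a, for Igfbp6 Col16a1, Entpd2, Scarf2 and 1500015O10Rik, and for Igfbp7 Cd81, Fth1 and Ltbp4. In Mus the closest to Igfbp4 was Cd200, to Igfbp5 the collagen gene Col6a2 and to Igf1 Fgl2, with r of 0.93, 0.99 and 0.997. The members themselves did not form 1 profile: r between Igfbp2 and Igfbp3 was 0.26 in Acomys and 0.18 in Mus, and between Igfbp6 and Igfbp7 0.44 and 0.62.

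Of 28 other genes of the IGF axis, 27 were in both gene lists and 22 were examined in basal cells, 1 higher and 9 lower in Acomys, with a median log2 ratio of -0.42 beside -0.47 for all genes. In suprabasal, follicle and sebocyte cells 1, 1 and 2 were higher and 11, 11 and 10 lower, of 18, 19 and 19. The shares of all genes were 16.0%, 15.9%, 13.3% and 11.8% higher and 37.5%, 40.6%, 39.9% and 42.8% lower in the 4 classes. Igf2r, the clearance receptor of IGF2, was 11.3-fold higher (3.47 to 58.4) in Acomys sebocytes, with 14.3 CPM in Acomys and 1.26 CPM in Mus, the level of 3 UMIs. Ide, which degrades insulin, had 6.97 CPM in Acomys and 104 CPM in Mus suprabasal cells, and was 10.98-fold to 27.7-fold lower in Acomys in the 4 epithelial classes. In blood endothelium 1 of 17 was higher and 9 were lower, beside 13.9% and 33.0% of all genes. The lower ones included Insr, the insulin receptor gene, with 5.20 CPM in Acomys, the level of 3 UMIs, and 123 CPM in Mus. The transcription factor gene Foxo1, with 24.3 CPM in Acomys and 137 CPM in Mus, was also among them.

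Of other genes with an IGFBP domain, 2 were higher and 1 lower of 8 in basal cells, beside 16.0% and 37.5% of all genes, 2 and 1 of 6 in suprabasal cells and 2 and 2 of 6 in follicle cells. In sebocytes 0 were higher and 3 lower of 5, beside 11.8% and 42.8%, and in pericyte-like cells 1 was higher and 3 lower of 5, beside 12.9% and 16.4%. Cyr61, a matrix-associated signalling protein, had 174 CPM in Acomys and 37.4 CPM in Mus follicle cells, 4.65-fold higher in Acomys (3.70 to 5.89), and it is a leading gene of the Prss22 cluster that also carried Igfbp7. Nov, a relative of Cyr61, reached 1917 CPM in Acomys and 48.1 CPM in Mus pericyte-like cells and 442 CPM and 0 in chondrocyte-like cells. In Mus pericyte-like cells 4 UMIs of Igfbp6 made 64.1 CPM, so the Nov level there rests on fewer. Htra1, a protease that cleaves IGFBPs, had 409 CPM in Acomys and 78.1 CPM in Mus endothelium, 5.23-fold higher in Acomys (3.62 to 7.78). Crim1 was 29.1-fold to 49.7-fold lower in Acomys basal, suprabasal and sebocyte cells.

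Of 14 genes for reported surface partners and proteases of the binding proteins, 13 were examined in basal cells, 1 higher and 7 lower in Acomys, with a median log2 ratio of -2.59, beside 16.0% and 37.5% of all genes and their median of -0.47. The matrix metalloproteinase Mmp3, reported to cut IGFBPs, had 3.31 CPM in Acomys basal cells, against 533 in those of Mus, 160.8-fold lower in Acomys. Suprabasal, follicle and sebocyte cells had 0, 1 and 1 higher and 6 lower each, of 12, 10 and 10, with medians of -2.19, -1.65 and -1.62. All genes there were 15.9%, 13.3% and 11.8% higher and 40.6%, 39.9% and 42.8% lower. Chondrocyte-like cells had 2 higher and 2 lower of 8, with a median of -0.23, beside 15.0% and 17.0% of all genes and their median of 0.12. In blood endothelium 1 of 10 was higher and 6 were lower, beside 13.9% and 33.0%. Cd93, an endothelial receptor reported to bind IGFBP7, had 20.8 CPM in Acomys and 466 CPM in Mus there, 22.4-fold lower in Acomys. The free RNA, depth and annotation of the 2 libraries differ in all of these comparisons, and their part was not tested.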

How the data were processed

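The deposited values were whole-number counts of UMIs per gene and barcode, made by the authors with Cell Ranger 2.2.0, with mm10 as the build, per the submitters' processing notes. Those notes name mm10 for both libraries, although the Acomys gene list carries identifiers of another annotation, and no source used here names its build. The Acomys library held 71042559 UMIs and the Mus library 130039670.

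Barcodes were kept as cells above 10% of the 99th percentile of the 3000 largest, which put the lowest kept cell at 2875 UMIs in Acomys and 4695 in Mus, with at least 200 genes and at most 20% mitochondrial UMIs. No mitochondrial gene was recognised in the Acomys list, so that filter acted on Mus alone. Simulated doublets removed 183 and 386 cells at 0.8% per 1000 cells. Cells were clustered per library on 2000 variable genes without the members, with 30 components, 20 neighbours and Leiden resolution 1 (leidenalg 0.10.2, scikit-learn 1.9.0, numpy 2.4.6, scipy 1.17.1, Python 3.11.15, matplotlib 3.10.9). A cluster was named from at least 3 counted markers, each in at least 20% of its cells and 1.5-fold above the rest. A cluster led mainly by the markers of a different type was left unnamed, as was one with fibroblast markers but Myf5 or cartilage genes among its leading genes, a rule set after seeing them.

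UMIs were summed per class. Ratios are Acomys over Mus with exact conditional intervals, and a 0 was bounded with 3 counts. The log2 ratios used a prior count of 0.5. With 1 library per species no p-value was formed. The interval code was tested on simulated data and recovered nearly all changed genes.

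The members and gene lists were chosen with earlier results of these data known. All 8 members are described, and list genes are named for a high level or for a difference of 4-fold or more in either direction, with an interval clear of the 2-fold limit. Promoters were read from RefSeq tables on GRCm38.p6 and matched by symbol.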

Additional observations from a re-analysis of the deposited data

Results flagged for a closer look

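Igfbp6 and Igfbp7 differed between the libraries in opposite directions in different cell classes, and the difference between classes was not tested, since each species had 1 library. Igfbp6 was lower in Acomys by 8.40-fold in basal keratinocyte-like cells, 2.15-fold in suprabasal keratinocyte-like cells and 2.04-fold in sebocyte-like cells. Suprabasal and sebocyte levels lay below the free RNA level of the gene in both libraries, and with the minimum of 1000 UMIs the sebocyte ratio was 0.565 (0.281 to 1.08). The Acomys basal level of 12.4 CPM also lay below the free RNA level of 29.0 CPM in Acomys. With the minimum of 1000 UMIs the basal level was 2.91-fold lower in Acomys (2.55 to 3.33). Igfbp6 was 4.96-fold higher in Acomys chondrocyte-like cells. That Acomys class had the fibroblast list genes Dcn and Col1a2 among its leading genes, and in Mus the gene was highest in fibroblast-like cells. Igfbp7 was 3.71-fold higher in Acomys hair follicle-like cells, and 7.69-fold lower in Acomys blood endothelium-like cells. Without the Acomys follicle cluster led by Prss22 the follicle ratio of Igfbp7 was 0.861.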

How the results depend on the processing

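Over the epithelial classes, 4 of 27 pairs of a member and a class counted as higher and 14 as lower in Acomys. Of all genes, 11.8% to 16.0% were higher and 37.5% to 42.8% lower in these classes. Counting in unnamed clusters left 2 higher. Subtracting 10% free RNA left 9 lower, and taking each ratio relative to that in all other cells left 2 lower. The other alternatives gave 3 to 6 higher and 12 to 15 lower. Of 392 log2 ratios under alternatives, 296 stayed within their counting interval, 86 moved beyond it and 10 changed the sign of a ratio that had counted as higher or lower. A further 26 ratios that had not counted as either also changed sign. With 10% free RNA subtracted, Igfbp5 reached 4.19 in basal and 2.73 in suprabasal cells, classes in which it had 3 Acomys UMIs each. Relative to all other cells, Igfbp4 and Igfbp5 reached 2.28 and 2.11 in basal cells and 1.29 and 2.03 in suprabasal cells. On the same scale Igfbp6 was 0.61 and Igf1r 0.22 in suprabasal cells, and Igfbp6 was 0.56 in sebocytes. Without the Acomys cluster led by Prss22, Igfbp7 in the follicle was -0.21. The cause was not tested. Among the ratios not counted, the follicle log2 ratio of Igfbp6 was -0.94, and 1.45 with the minimum of 1000 UMIs and at resolution 0.5, 0.76 at resolution 2, 1.70 without doublet removal and 0.59 relative to all other cells. Keeping the members in the clustering, leaving out the Prss22 cluster and comparing endothelial clusters were chosen after seeing the data. No value was had for Mus chondrocyte-like cells at the main minimum, for chondrocyte-like or fibroblast-like cells of either library at 500 UMIs, where 1 cluster per library mixed leading genes of both, or for Acomys fibroblast-like cells at any minimum. No paired analysis was possible because each species had 1 library. Classes of 25 Acomys cells and genes with 3 or fewer UMIs are limited by depth.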

Other observations

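Unnamed clusters held high levels of some members. The 267 Acomys cells led by Krt35, Aspn and Pcp4 had 705 CPM of Igfbp7. An Acomys cluster of 152 cells led by Il1r2 and Cyp1a1, seen with the minimum of 1000 UMIs and with 2 basal markers counted, had 977 CPM of Igfbp2 and 550.3 CPM of Igfbp3. A Mus cluster of 281 cells led by Krt6a, seen with the same minimum, had 629 CPM of Igfbp2 and 326 CPM of Igfbp3. Its other leading genes included Krt16 and S100a9, which are known from activated keratinocytes.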
